A study of Homo sapiens with 8 samples.

Results

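Long-chain fatty acids enter metabolism only after an acyl-CoA synthetase has joined them to coenzyme A. The enzymes of the ACSL family do this at the endoplasmic reticulum, at mitochondria and on lipid droplets, and the acyl-CoA they form is either burned in mitochondria or built into phospholipids and triglyceride. DGAT1 and DGAT2 make the triglyceride that is stored in droplets, the perilipins PLIN2 and PLIN3 coat the droplet surface, and PNPLA2 (adipose triglyceride lipase) starts its breakdown. The transcripts of 10 such genes (ACSL1, ACSL3, ACSL4, ACSL5, ACSL6, PLIN2, PLIN3, DGAT1, DGAT2 and PNPLA2) were followed here in a pair of human thyroid cell lines in which microRNA-375 was raised or blocked. The genes were taken by name, being 10 of the 36337 gene names on the array, and 15 of its 50599 probes carried such a name.

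Nthy-ori 3-1, an immortalized line from non-tumoral follicular thyroid cells, was transfected with pre-miR-375, a synthetic form of the microRNA, or with a control (5 nM). TT, a line from a medullary thyroid carcinoma that carries a RET mutation, was transfected with antagomiR-375, an inhibitor of the microRNA, or with a control (20 nM). RNA was taken 48 h after transfection and each of the 4 groups had 2 one-colour Agilent arrays. The labels name both controls CTL only, and the methods of the study give other concentrations than the labels. Within a line, arrays with the same replicate number lay on the same slide and were compared as a pair, and no slide held both lines, so that line and slide cannot be told apart. The study's methods call the replicates biological, while the labels do not say whether they came from separate cultures. The RNA integrity number was 8 in the TT controls and 9 in the other groups, and its part in the TT results cannot be told apart from that of the antagomiR.

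All levels below are log2 spot intensities after quantile normalization over the 8 arrays, so that 1 unit is a doubling. They rank samples for 1 probe and not genes against each other, since probes differ in brightness. A probe counted as detected on an array when Feature Extraction, the scanner software, put it well above background, which held for 9 of the 15 probes (7 of the 10 genes) on all 8 arrays, for 5 probes on some arrays and for 1 probe of PLIN2 on none. Where a gene had several probes, as 4 of the 10 genes had, the brightest over all arrays stands for it.

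The microRNA was not itself on the array, and its mature sequence and the array probes of ACSL3 and ACSL4, which differed most after transfection, are shown to place what was measured. In the microRNA, read from RefSeq (GRCh38.p14, chr2:219001648-219001669, minus strand), capitals mark the seed, bases 2 to 8, which pairs with target RNA. The probes lie at chr2:223807495-223807554 on the plus strand (ACSL3) and at chrX:108885270-108885329 on the minus strand (ACSL4) of hg19, and no annotation of that build was used here to place them in exons or untranslated regions.
hsa-miR-375-3p: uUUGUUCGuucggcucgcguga
ACSL3 probe: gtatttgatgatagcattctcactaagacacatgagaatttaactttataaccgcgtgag
ACSL4 probe: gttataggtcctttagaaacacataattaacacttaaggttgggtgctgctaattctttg
The complement of the seed, CGAACAA, was in none of the 15 member probes and in 31 of all 50599 probes (0.0613%). The shorter GAACAA inside it, the complement of bases 2 to 7, was in 1 member probe, the PLIN2 probe detected on no array, and in 2.21% of all probes. On the other strand, TTGTTCG was in 0 member probes and in 0.0692% of all probes. These matches describe the probes only, which are short windows of the transcripts.

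The identity of the lines was read from marker genes. In TT cells all 7 measured medullary markers were detected on every array, among them CALCA (calcitonin) and CHGA (chromogranin A), with a summed linear signal of 493689 to 551637 in the controls. In Nthy-ori 3-1 controls 1 of the 7, RET, was detected on both arrays and the summed signal was 111 to 140, whereas after pre-miR-375 5 of the 7 were detected on both arrays and the sum was 280 to 472. Their part in the Nthy-ori 3-1 results was not tested. PAX8 and FOXE1, thyroid follicular factors, were detected in Nthy-ori 3-1, while TSHR, DUOX2 and NKX2-1 were not. Of the 6 adipocyte markers, CIDEC and LIPE, both droplet genes, were detected on all 8 arrays and ADIPOQ, LEP, PLIN1 and FABP4 on none. SEC23A differed by -1.39 after pre-miR-375 (limma adjusted p 0.318) and by 0.65 after antagomiR-375 (0.512) on the log2 scale. The study chose this gene from the same comparisons, in part by direction and fold. It is therefore no independent check of the transfections.

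**Figure D1:**
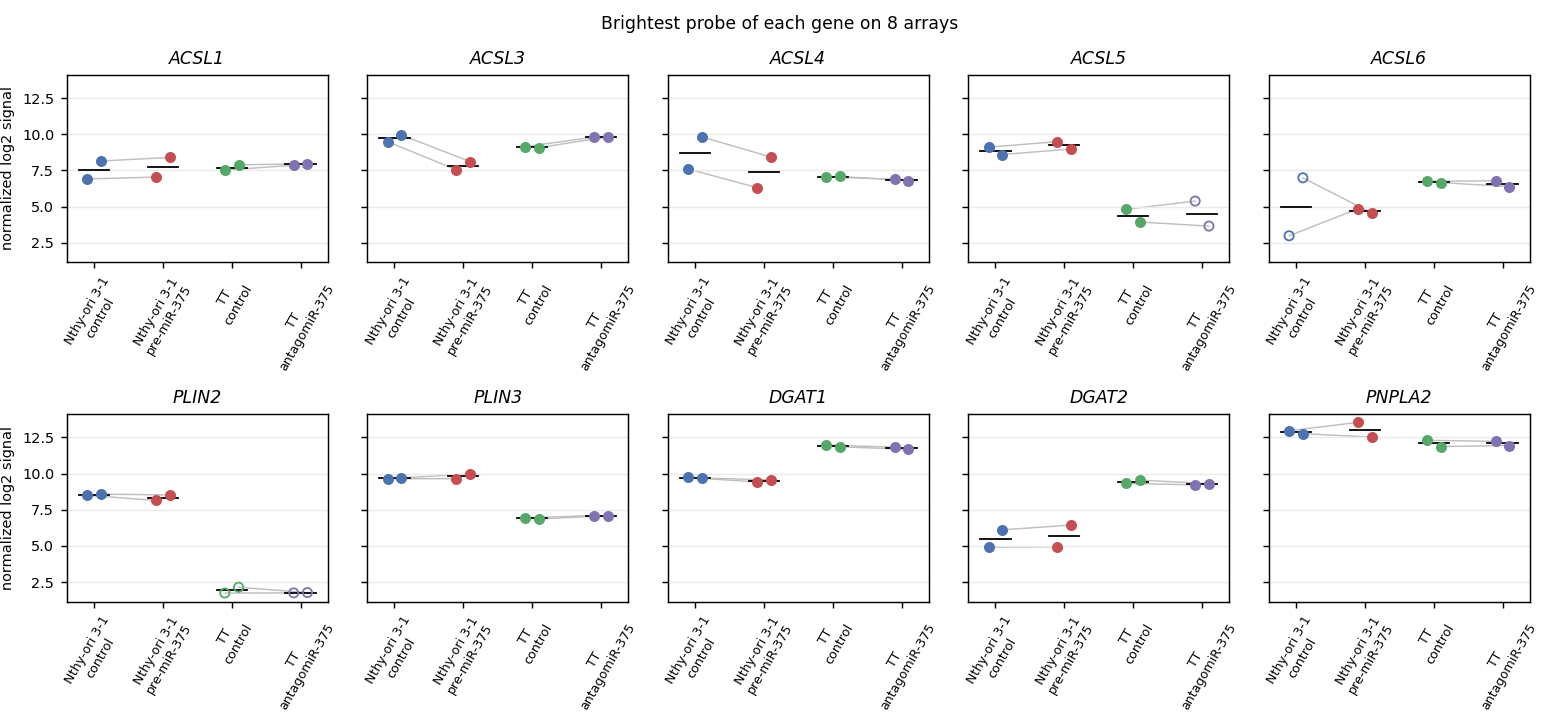
Normalized log2 signal (y axis) of the brightest probe of each of the 10 genes in the 4 groups (x axis), with 1 point per array, a black bar at the mean of 2 arrays and grey lines joining arrays of the same slide. Filled points mark groups in which both arrays were well above background. ACSL3 lay lower after pre-miR-375 and higher after antagomiR-375, ACSL4 lay lower after pre-miR-375 within each slide, and PLIN2 in TT cells was at most 2.14.

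By their brightest probes, ACSL3 and ACSL4 were the members that differed most in Nthy-ori 3-1 cells given pre-miR-375, and both read lower on each slide. ACSL3, a synthetase of the endoplasmic reticulum and of nascent lipid droplets, read 9.49 and 9.95 in the controls and 7.54 and 8.11 with pre-miR-375. Both treated arrays lay below both controls, and the paired differences were -1.95 and -1.83. The fitted log2 fold change was -1.89 (SE 0.0906, 2 pairs), a level lower by 3.72-fold, with an adjusted p of 0.318 in limma.

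ACSL4, which prefers arachidonic acid and other polyunsaturated fatty acids, read 7.60 and 9.82 in the controls and 6.31 and 8.43 with pre-miR-375. The groups overlapped, since the slides stood apart by 2.23 in the controls and by 2.12 in the treated cells, but within the slides the differences were close, at -1.29 and -1.39. A control difference between slides as large as that of ACSL4 was seen for 0.445% of the probes detected on both arrays, and the median over these probes was 0.337. The fitted log2 fold change of ACSL4 was -1.34 (SE 0.0874), a level lower by 2.53-fold, with a limma adjusted p of 0.318. Without the pairing by slide, the adjusted p of ACSL4 was 0.907 at the same fold change.

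After pre-miR-375 no member passed the adjusted threshold of 0.05, and neither did any of the 50594 probes tested (0%). The smallest adjusted p over all probes was 0.318, the value of ACSL3 and ACSL4. With 2 arrays against 2, the smallest two-sided p an exact permutation test allows without the pairing is 0.333, and with the pairing by slide it is larger. At an unadjusted p under 0.05 in limma, ACSL3 and ACSL4 were lower (2 of 15 probes, against 7.26% of all probes) and ACSL5 was higher (1 of 15, against 7.08%). ACSL3 and ACSL4 were also the members with an average level of at least 6 and a fold change of at least 1 log2 unit in size, the study's minimum in this line, that was lower on both slides. They were 2 of 15 probes, against 1.33% of all probes. The study also required an adjusted p of at most 0.05 in this line, which ACSL3 and ACSL4 missed in the main processing. The call moved with other signal processing, which changed the signal and its background treatment together, and the cause was not tested. With the mean signal and normexp correction, ACSL3 (log2 fold change -1.66, limma adjusted p 0.0234) and ACSL4 (-1.07, 0.0436) passed the threshold. So did 1560 of all 50594 probes there. With the log2 values as the authors deposited them the values were -1.70 (0.0366) and -1.10 (0.0497), and 577 of 50594 probes passed.

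The other synthetases did not follow ACSL3 and ACSL4. ACSL5, found at the outer mitochondrial membrane and the endoplasmic reticulum, read 9.11 and 8.60 in the controls and 9.49 and 8.98 with pre-miR-375. The groups overlapped, while the paired differences were alike, at 0.37 and 0.38, and gave a log2 fold change of 0.38 (SE 0.0798) at a limma adjusted p of 0.337. ACSL1, a synthetase of fat, liver and heart, read 6.91 and 8.15 against 7.04 and 8.40, with the slides again further apart than the groups, and a log2 fold change of 0.18 (limma adjusted p 0.533). ACSL6, known from brain, moved in opposite directions on the slides: its brightest probe read 2.98 and 6.99 in the controls, where only 1 array was above background, and 4.85 and 4.56 with pre-miR-375. Its paired differences of 1.87 and -2.43 leave no direction for this gene.

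The droplet genes differed less. PLIN3, a perilipin that exchanges between cytosol and droplets, read 9.64 and 9.70 in the controls and 9.65 and 9.97 with pre-miR-375. PLIN2, the perilipin bound to droplets in most cells, read 8.50 and 8.58 against 8.14 and 8.52 with its brightest probe, with both pairs lower and a log2 fold change of -0.21 (SE 0.132). A dimmer PLIN2 probe read higher in both pairs, by 0.12 and 2.02, so that the probes of this gene disagreed. DGAT1 read 9.73 and 9.69 in the controls and 9.42 and 9.56 with pre-miR-375, a set without overlap and a log2 fold change of -0.22 (SE 0.102). ACSL3 and DGAT1 were the members whose groups did not overlap (2 of 15 probes, against 30.1% of all probes).

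DGAT2 read 4.90 and 6.11 against 4.94 and 6.44, a log2 fold change of 0.19. PNPLA2 read 13.54 and 12.52 against 12.96 and 12.76 in the controls, and its pairs went in opposite directions (0.58 and -0.24). Its second probe read lower in both pairs, by -0.43 and -0.12. Over the 10 genes the median log2 fold change was -0.03 with 5 higher and 5 lower, beside a median of 0.03 over the 24188 probes detected on all 4 arrays. Apart from ACSL3 and ACSL4, the fold changes ran from -0.28 to 0.38.

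**Figure D2:**
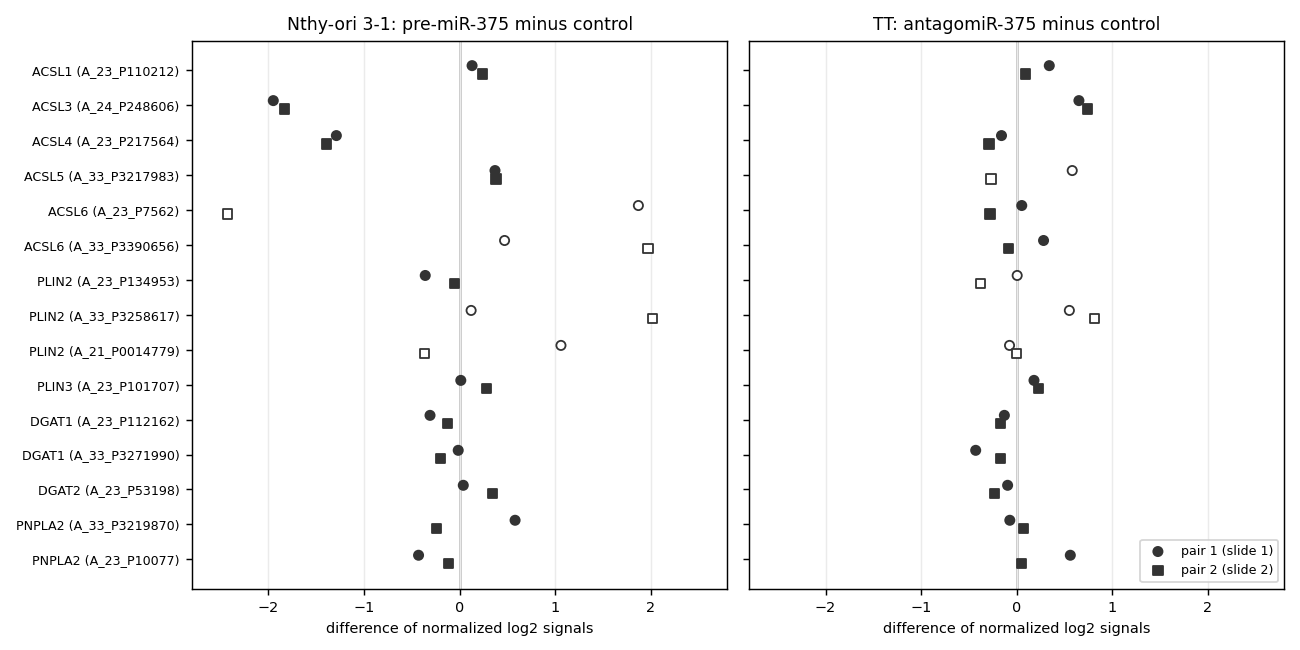
Difference of normalized log2 signals (x axis), treated minus control of the same slide, for each of the 15 probes (y axis), in Nthy-ori 3-1 (left) and TT cells (right). Circles are pair 1 and squares pair 2, and filled symbols mark probes well above background on all 4 arrays of the line. In Nthy-ori 3-1 the pairs of ACSL3 (-1.95 and -1.83) and ACSL4 (-1.29 and -1.39) lie apart from the other filled symbols, and in TT cells the pairs of ACSL3 (0.65 and 0.74) are furthest to the right of those.

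In TT cells, in which the microRNA was blocked, ACSL3 read higher on both slides and ACSL4 did not. ACSL3 read 9.15 and 9.08 in the controls and 9.80 and 9.82 with antagomiR-375. The groups were well separated, with paired differences of 0.65 and 0.74 beside an SD of 0.0439 between the controls and of 0.0146 between the treated arrays. The log2 fold change was 0.70 (SE 0.0872), a level higher by 1.62-fold, and the limma adjusted p was 0.512, the smallest of any of the 50587 probes. ACSL4 read 7.05 and 7.08 in the controls and 6.89 and 6.80 with antagomiR-375, lower in both pairs, with a log2 fold change of -0.23 (SE 0.0925, limma adjusted p 0.573). Whether the effects of the pair of reagents differ between the lines was not tested, since reagent and line changed together.

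No member passed the adjusted threshold in TT cells, nor did any probe (0%). At an unadjusted p under 0.05 in limma, ACSL3 and a PLIN2 probe below background on all 4 arrays of the line were higher (2 of 15 probes, against 4.91% of all probes), and none was lower (0, against 4.82%). ACSL3 was also the only member higher by at least 0.6 log2 units, the fold the study used for this line, at an average level of at least 6 and in the same direction on both slides, against 1.15% of all probes. In the alternatives tried, its fold change ran from 0.62 to 0.74 and its adjusted p from 0.0931 to 0.563.

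By their brightest probes, the other members differed by less than 0.4 between the TT groups, from -0.23 to 0.21. A dimmer PLIN2 probe, below background on all TT arrays, differed by 0.68. Over all 15 member probes, ACSL3 and undetected PLIN2 probes included, the groups did not overlap for 9, from 7 genes (against 42.3% of all probes). The median difference between arrays of a group was 0.188 in TT controls and 0.16 in treated TT cells, against 0.337 and 0.39 in the Nthy-ori 3-1 groups. PLIN3 read 6.93 and 6.86 in the controls and 7.10 and 7.09 with antagomiR-375 (log2 fold change 0.20, SE 0.0843). DGAT1 read 11.96 and 11.85 against 11.83 and 11.68, and its second probe 9.02 and 8.93 against 8.59 and 8.76. DGAT2 read 9.32 and 9.54 against 9.22 and 9.31. Both triglyceride synthases thus read slightly lower in both pairs, by a log2 fold change of -0.15 and -0.16.

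ACSL1 read 7.52 and 7.88 in the controls and 7.86 and 7.97 with antagomiR-375, with overlapping groups. ACSL6 read 6.74 and 6.66 against 6.79 and 6.38. PNPLA2 read 12.30 and 11.87 against 12.23 and 11.94 with its brighter probe, and 8.59 and 8.73 against 9.15 and 8.78 with its other probe, which did not overlap and gave a log2 fold change of 0.30. ACSL5 was near background in TT cells, at 4.81 and 3.93 in the controls and 5.38 and 3.65 with antagomiR-375, where 1 of 2 arrays detected it. PLIN2 was not well above background on any TT array with any of its 3 probes. The median log2 fold change over the 10 genes was -0.06 with 4 higher and 6 lower, beside -0.01 over the 27237 probes detected on all 4 arrays.

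For droplet genes and ACSL5 the log2 differences between the control groups of the lines were larger than those after either transfection. Compared with Nthy-ori 3-1 controls, TT controls had less ACSL5, PLIN2, PLIN3 and PNPLA2 and more DGAT1 and DGAT2 RNA. These 6 of 10 genes passed the limma adjusted threshold of 0.05 with 8 of 15 probes, against 25.8% of all probes, and the groups did not overlap for 13 of 15 probes, against 65.4% of all probes. The median log2 difference over the 10 genes was -0.69, beside -0.13 over all detected probes. The control arrays also enter the comparisons within each line, so these are not independent of them. By the labels the control groups also differed in transfected dose (20 nM in TT, 5 nM in Nthy-ori 3-1) and in RNA integrity number (8 and 9). The part of dose and RNA integrity cannot be told apart from that of line and slide.

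Among the droplet coat genes, PLIN2 read 8.50 and 8.58 in Nthy-ori 3-1 controls and 1.74 and 2.14 in TT controls, where it was not well above background. The log2 difference was -6.59 (limma adjusted p 0.00179). In the main processing the level in TT was at least 30.6-fold lower, a bound set by the dimmest signal that still counted as detected. With normexp the log2 difference was -2.90 and with the deposited values -3.51, both smaller than this bound. The second PLIN2 probe gave a log2 difference of -2.83 (limma adjusted p 0.0228) and a bound of 2.81-fold. PLIN3 read 9.64 and 9.70 against 6.93 and 6.86, a log2 difference of -2.77 (SE 0.122), or 6.84-fold lower in TT (limma adjusted p 0.00310). PLIN1, the perilipin of fat cells, was detected in neither line.

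The triglyceride synthases ran the other way. DGAT2 read 4.90 and 6.11 in Nthy-ori 3-1 controls and 9.32 and 9.54 in TT controls, a log2 difference of 3.93 (SE 0.494), or 15.2-fold (limma adjusted p 0.0193). DGAT1 read 9.73 and 9.69 against 11.96 and 11.85, a log2 difference of 2.20 (SE 0.126), or 4.59-fold (limma adjusted p 0.00468), and its second probe gave a difference of 1.23 (0.0452). For both genes all 4 TT arrays lay above all 4 Nthy-ori 3-1 arrays.

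The lipase PNPLA2 was lower in TT by 2.53-fold with 1 probe, at 9.84 and 10.16 against 8.59 and 8.73 (limma adjusted p 0.0219). Its brighter probe gave a log2 difference of -0.77 that missed the threshold (limma adjusted p 0.101). That probe passed with normexp (0.0362, beside 14506 of 50584 probes called) and with the deposited values (0.00789, beside 19640 of 50584). Among the synthetases, ACSL5 read 9.11 and 8.60 in Nthy-ori 3-1 controls and 4.81 and 3.93 in TT controls, a log2 difference of -4.49 (SE 0.416), or 22.4-fold lower in TT (limma adjusted p 0.0109). ACSL3 was lower in TT controls by 0.61 (0.152) and ACSL4 by 1.64 (0.302) with groups that did not overlap, and ACSL1 read 0.17 higher with groups that did. Without Nthy-ori 3-1 control replicate 1 the log2 difference of ACSL4 was -2.75 and passed the limma threshold (adjusted p 0.0226), and without replicate 2 it was -0.53. ACSL3 passed with the deposited values (-0.90, limma adjusted p 0.0126), where the median log2 difference of all probes was -0.31.

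These calls rested on few arrays. With a TT control array left out, 1 array stood for the group. Most or all of these calls were then lost, as were most or all calls over the whole array. Without TT control replicates 1 and 2 in turn, the log2 difference was -4.93 and -4.05 for ACSL5 and -6.39 and -6.79 for PLIN2. For the brighter PNPLA2 probe it was -0.99 and -0.55. ACSL5 was not called without Nthy-ori 3-1 control replicate 1 (limma adjusted p 0.0523), and PNPLA2 was not called without Nthy-ori 3-1 control replicate 2. The brightest probes of all 6 kept their direction in each alternative tried. The size moved too. With the deposited values, which differ in signal and normalization, the log2 difference was -3.23 for ACSL5, -3.51 for PLIN2 and 2.70 for DGAT2, while the median of all probes shifted to -0.31 from -0.05.

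**Figure D3:**
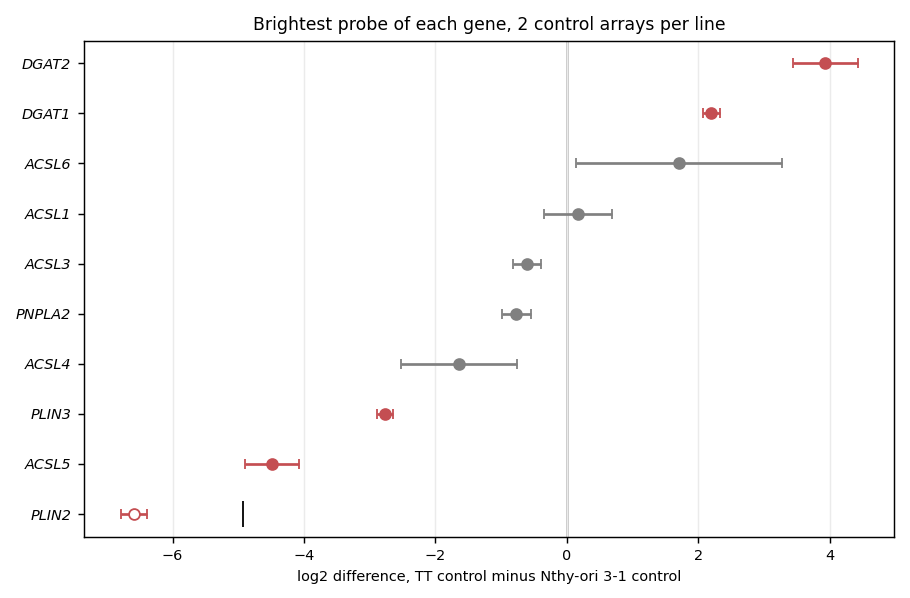
Log2 difference between TT controls and Nthy-ori 3-1 controls (x axis) for the brightest probe of each of the 10 genes (y axis), with bars of 1 standard error from limma over 2 arrays per line. Red marks an adjusted p of at most 0.05 and grey a larger one, and the open symbol, PLIN2, was not well above background in TT, where the black tick marks the bound of 30.6-fold. DGAT2 and DGAT1 lie to the right of 0 and PLIN3, ACSL5 and PLIN2 to the left.

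Taking all 4 groups in order, ACSL3 ran from 7.83 ± 0.405 (SD, n = 2) in Nthy-ori 3-1 with pre-miR-375 through 9.11 ± 0.0439 in TT controls and 9.72 ± 0.320 in Nthy-ori 3-1 controls to 9.81 ± 0.0146 in TT with antagomiR-375. The upper pair in this order did not differ beyond its spread. ACSL4 ran from 6.84 ± 0.0644 in TT with antagomiR-375 and 7.07 ± 0.0218 in TT controls to 7.37 ± 1.5 and 8.71 ± 1.57 in Nthy-ori 3-1 with and without pre-miR-375, and the Nthy-ori 3-1 groups overlapped each other. For DGAT2, PLIN3 and ACSL5 the order split by line, and within each line the groups lay within 0.4 of each other.

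The genes whose levels were most like ACSL3 over the 8 arrays, with each line centred on its own mean, were LHFPL2 (Pearson r 0.997), SDCCAG3 (0.995), KDSR (0.995), XPR1 (0.995) and TMEM55A (0.995), out of 22186 probes detected on all arrays. They read lower after pre-miR-375 by log2 fold changes of -1.02 (SDCCAG3) to -1.5 (XPR1) and higher after antagomiR-375 by 0.32 to 0.71. KDSR, an enzyme of sphingolipid synthesis, read -1.35 and 0.37. These 8 points share 4 slides, and the values are a description. Among the member probes, the r with ACSL3 was 0.671 for the dimmer PNPLA2 probe, 0.653 for ACSL4 and 0.523 for the brighter DGAT1 probe. The other member probes ran from -0.713 (the dimmer ACSL6 probe) to 0.373 (the brightest PLIN2 probe).

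Other genes of fatty acid and droplet metabolism were read from lists of 93 names, of which 91 were on the array. After pre-miR-375 none passed the adjusted threshold, 16 were higher (against 7.08% of all probes) and 9 lower (against 7.26%) at an unadjusted p under 0.05 in limma, and the median log2 fold change was 0.14, against 0.03 over all detected probes. All probes include undetected ones, whereas 72 of the 91 were detected on all 4 arrays. Where only probes detected on at least 2 of these arrays were fitted, 7413 of 27716 had such a p in either direction. The lists were not counted in that fit. METTL7A, a droplet-associated methyltransferase, read 6.10 and 5.03 in the controls and 8.57 and 8.22 with pre-miR-375, a log2 fold change of 2.83. ELOVL6, which lengthens saturated fatty acids, read 7.89 and 8.42 against 6.36 and 6.54 (-1.70). G0S2, an inhibitor of the lipase PNPLA2, read 12.26 and 12.74 against 11.03 and 11.28 (-1.35). For each of these the groups were separate, and the limma adjusted p was 0.318.

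Of the 11 genes of mitochondrial fatty acid oxidation, 10 read higher after pre-miR-375, with a median of 0.56, and 4 of them had an unadjusted p under 0.05 in limma (against 7.08% of all probes). That share includes undetected probes. In the fit without dim probes, 7413 of 27716 had such a p in either direction. ACADL was detected on no array, and it and ACADS went in opposite directions on the slides. Over the 10 detected genes the median was 0.49, and 8 of them read higher in both pairs. CPT2 (0.91) and CPT1A (0.88), which carry acyl groups into mitochondria, led this list. ACADM read lower, by a log2 fold change of -0.24. The same list had a median of -0.03 after antagomiR-375 in TT, with 5 higher and 6 lower. Of the remaining genes named by size after pre-miR-375, ACSBG1 (1.22), AGPAT9 (0.99), HSD17B11 (0.97) and ACSS1 (0.87) read higher and AGPAT3 (-1.01) lower.

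After antagomiR-375 in TT, 5 of the 91 genes were higher (against 4.91% of all probes) and 1 lower (against 4.82%) at an unadjusted p under 0.05 in limma, with none past the adjusted threshold, and the median was 0.02. CIDEC, which fuses and enlarges droplets, read 8.31 and 7.99 in the controls and 9.64 and 9.48 with antagomiR-375, without overlap, at a log2 fold change of 1.41 (limma adjusted p 0.512). In Nthy-ori 3-1 cells CIDEC read 9.49 and 8.94 in the controls and 9.92 and 9.55 with pre-miR-375, higher there too by 0.52. ACLY (0.70), which makes acetyl-CoA for fatty acid synthesis, and PPARA (0.60), a regulator of fatty acid oxidation, read higher after antagomiR-375, and LIPA (-0.53), the lysosomal acid lipase, read lower. SLC27A5, ACBD3, FITM2, FADS2, LPIN1 and ACSS1 lay between -0.38 and 0.36.

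**Figure D4:**
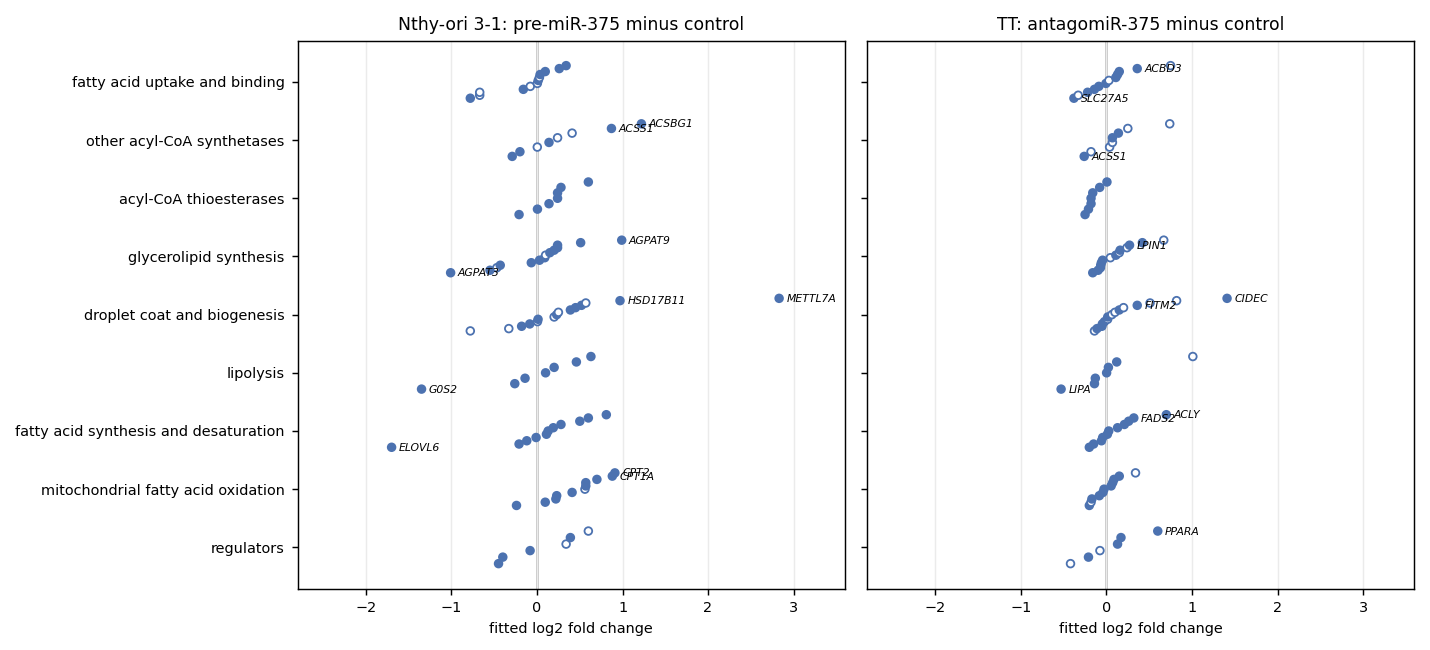
Fitted log2 fold change (x axis) of 91 genes of fatty acid and droplet metabolism, grouped by list (y axis), after pre-miR-375 in Nthy-ori 3-1 (left) and after antagomiR-375 in TT cells (right). Each point is the brightest probe of a gene, filled where it was well above background on all 4 arrays of the line, and up to 10 genes are named per panel. The mitochondrial oxidation list lies to the right of 0 for 10 of 11 genes in Nthy-ori 3-1 and for 5 of 11 in TT.

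Between the control groups, 36 of the 91 genes passed the limma adjusted threshold, against 25.8% of all probes, with 15 higher and 21 lower in TT. All probes include undetected ones, whereas 65 of the 91 were detected on all 4 control arrays. Where only probes detected on at least 2 of these arrays were fitted, 14132 of 31059 passed. The lists were not counted in that fit. In TT 7 of 14 genes of glycerolipid synthesis, 3 of 8 other acyl-CoA synthetases and 3 of 11 genes of fatty acid synthesis and desaturation were called lower and none higher, and 5 of 12 genes of fatty acid uptake and binding were called higher and none lower. LPIN3, a phosphatidate phosphatase, was lower in TT by a log2 difference of -9.42 (limma adjusted p 0.00125), with a bound of at least 243-fold. Such bounds hold for the main processing only. PNPLA3, a lipase of the PNPLA2 family, ACSF2, AGPAT9 and PPARG, the regulator of fat storage, were lower by at least 47.7-fold, 46.2-fold, 39.7-fold and 19.6-fold. METTL7A was higher in TT by 172-fold (limma adjusted p 0.00489), SLC27A2, a fatty acid transporter, by 20.2-fold and HSD17B11 by 12.8-fold. CD36, a fatty acid receptor, was at least 3.15-fold higher in TT, and ACOT9 was 14.8-fold lower.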

How the data were processed

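The authors deposited, for each array, Feature Extraction 10.10.1.1 output with spot intensity values that were background subtracted but not normalized between arrays, and 1 table of normalized log2 values, whose signal and background steps are not given in the sources used here and whose columns followed the log2 median spot intensity most closely (r of at least 0.998). Labels name limma among the submitters' tools and polyA RNA, where the methods state total RNA. Descriptions of some TT arrays carry other replicate numbers than the titles, which were used. Here log2 processed intensity, without control spots and outlier spots (341 to 428 per array), was averaged over spots of a probe and quantile normalized over 8 arrays with limma 3.58.1 in R 4.3.3. Each line was fitted with the slide as a block (1 residual degree of freedom), the control groups without one, with Benjamini-Hochberg adjustment over all probes. Slide pairing came from the barcodes in the file headers, and paired deviations correlated at 0.785 in Nthy-ori 3-1 and 0.329 in TT. Steps were tested on simulated data. The number of arrays limits precision. Named pathway genes were up to 10 per comparison with the largest log2 fold change among detected genes moving alike in both pairs (between lines, not overlapping). Members, lists and the processing were chosen with earlier results of these data known. Gene names are those of the array design. A further 2 probes that describe ACSL6 carry other gene names and were not used.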

Additional observations from a re-analysis of the deposited data

How the results depend on the processing

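Each result was recomputed with normexp background correction, the deposited log2 values, 75th percentile scaling, dim probes left out, other blocks and each replicate left out. Of the single-gene values, 230 kept direction and side of the threshold, 9 passed it newly, 10 lost it and 10 changed sign; the cause was not tested. In Nthy-ori 3-1 the count of member genes past the adjusted threshold rose from 0 to 2 with normexp (1560 probes in all) and to 2 with deposited values (577 probes). With a replicate left out, ACSL3 and ACSL4 stayed past the fold there, and ACSL3 did in TT. Without replicate 1 a dimmer PLIN2 probe was added in Nthy-ori 3-1, higher by 2.02, while the brightest PLIN2 probe read -0.058. Between the control groups the count was 6. With a TT control array left out, most or all calls were lost, over the whole array as well as for the members. Without Nthy-ori 3-1 control replicate 1 ACSL5 was lost and ACSL4 and ACSL6 were added. Without Nthy-ori 3-1 control replicate 2 ACSL6 stood in place of PNPLA2. Without the replicate block, 0 members passed in either line. A replicate block across the lines, whose numbers share no slide, gave 5 (without PNPLA2), the slide as a random block 7, normexp and the removal of dim probes 7 each (ACSL6 added) and the deposited values 8 (ACSL3 and ACSL6 added). With 1 replicate left out, the log2 fold change ran from -2.43 to 1.87 for ACSL6 and from -0.24 to 0.58 for PNPLA2 in Nthy-ori 3-1, and in TT from -0.27 to 0.58 for ACSL5, from -0.28 to 0.052 for ACSL6, from -0.38 to 0.0041 for PLIN2 and from -0.073 to 0.071 for PNPLA2. Between the control groups it ran from -0.45 to 0.79 for ACSL1, from -2.75 to -0.53 for ACSL4 and from -0.29 to 3.72 for ACSL6, and ACSL1 read -0.21 with the deposited values. Probes near background (ACSL6, ACSL5 and PLIN2 in TT) limit what could be read for those genes. With 1 array left in a group, that array was taken to vary like the others.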
